A study of Homo sapiens with 4 samples.

Results

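The genes described here encode the ligands, receptors, SMAD proteins, antagonists and ID targets of TGF-beta, bone morphogenetic protein (BMP) and activin signaling. They were selected by name from a list of 49 symbols. Of these, 47 were found among the 15575 genes of the count table, and GREM1 and INHBB were not analysed here. RNA-seq was performed on U251 cells, an established human glioblastoma (GBM) cell line that had been transduced with lentivirus. The labels name the control group pGreen Ctrl, and the study describes it as a control shRNA (Ctrl). The other group received an shRNA against PRMT3 (PRMT3-KD), a protein arginine methyltransferase, and both groups were taken at 72 h by the study's account. Each group had 2 libraries. The labels do not say that the 2 libraries of a group came from separate cultures, and the hairpin used for them is not named in the sources used here. The p-values therefore measure the spread between these libraries, which may be technical.

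TGF-beta and activin ligands bind a type II and a type I receptor kinase, and the type I receptor then phosphorylates SMAD2 and SMAD3. BMPs use a related set of receptors and activate SMAD1, SMAD5 and SMAD9. Both sets of SMADs join SMAD4 in the nucleus, and SMAD6 and SMAD7 inhibit the pathway. Extracellular proteins such as noggin, follistatin and the latent TGF-beta binding proteins set how much ligand reaches the receptors. In GBM, TGF-beta is known for its links to invasion and immune suppression, and BMPs are known for driving glial differentiation of tumor stem cells. ID1 to ID4, inhibitors of basic helix-loop-helix transcription factors, are direct targets of BMP signaling in many cells.

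The libraries held 24804250 to 29756313 counts, which are given below as CPM (TMM-normalized counts scaled to the library total). PRMT3, the targeted gene, was at 19.3 and 19.5 CPM in the Ctrl libraries and 3.03 and 1.58 CPM in PRMT3-KD libraries 1 and 2, so both labels of the knockdown libraries matched its level (log2 fold change -3.08, standard error 0.314, edgeR adjusted p = 0.0177). The Ctrl libraries differed from each other by little more than counting error, with a chi-square per degree of freedom of 1.41 over 13004 genes, where counting error alone gives 1. The same ratio was 66.7 over 12997 genes for the PRMT3-KD libraries. Of 12 markers of the line, VIM, CD44, CAV1 and TNC were abundant, whereas CHI3L1 had no more than 3 counts in any library and the astrocyte marker GFAP was at 13.1 and 14.3 CPM in Ctrl against 1.26 and 5.39 CPM in PRMT3-KD. Summed haematopoietic markers did not exceed 1.01 CPM. RNA was measured in bulk, so fewer cells of a kind and less RNA per cell cannot be told apart.

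To compare the members with one another, CPM values were divided by the length in kb of the canonical transcript. On this per-length scale ID1 and ID3 stood at the top in Ctrl cells. ID1 had a level of 346 and 349 CPM per kb and ID3 of 280.4 and 276 CPM per kb in the Ctrl libraries. FSTL1, which encodes a secreted follistatin-like glycoprotein, followed with 162 and 163 CPM per kb. These values did not overlap, so the order of the first 3 held in both Ctrl libraries. ID2 (68.9 and 66.8 CPM per kb) and TGFB1 (65.4 and 65.8 CPM per kb) came next, but ID2 fell behind TGFB1, TGFB2 and FSTL3 when the union of all exons was used as the length. FSTL3 had a level of 57.8 and 57.6 CPM per kb and TGFB2 of 52.02 and 51.9 CPM per kb, and ID4, at 8.11 and 7.91 CPM per kb, was far below the other ID genes. The leading member among the SMADs was SMAD3 with 47.8 and 47.1 CPM per kb, among the storage and processing genes BMP1 with 39.5 and 39.1 CPM per kb, and among the receptors TGFBR2 with 26.6 and 26.96 CPM per kb. At the other end stood BMP2, BMP7 and TGFBR3, with no more than 0.112, 0.262 and 0.367 CPM per kb in either Ctrl library. Thus TGFB1 and TGFB2 were at a far higher level per length than the BMP ligands, of which BMP6 was the most abundant with 2.01 and 1.90 CPM per kb. SMAD2 was left out of this order, since its canonical transcript of 34626 bases in the annotation lowers its value per kb.

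**Figure D1:**
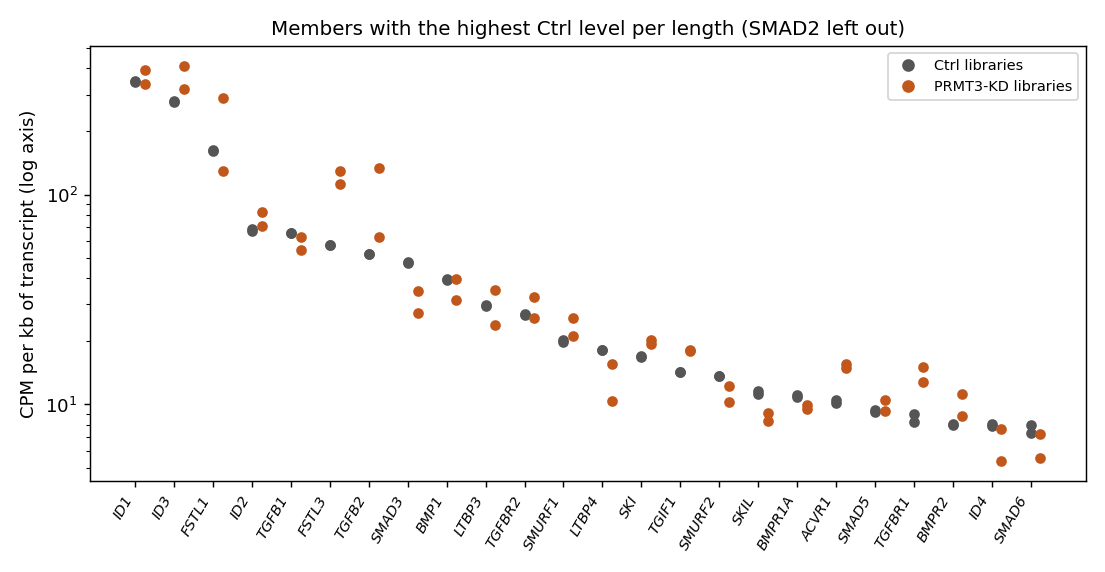
Level per length of the members with the highest Ctrl values, in CPM per kb of canonical transcript on a log axis, with 1 point for each Ctrl library (grey) and each PRMT3-KD library (orange). ID1, ID3 and FSTL1 lead in both Ctrl libraries, and the PRMT3-KD points of FSTL1 and TGFB2 lie far apart.

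The comparison of PRMT3-KD with Ctrl asks which of these genes changed after loss of PRMT3. FSTL3, INHBA, BMP4 and TGFBR1 rose and BMP6 fell. A gene was past the threshold where the edgeR quasi-likelihood test gave an adjusted p under 0.05 (Benjamini-Hochberg over 13172 genes) and the change exceeded 1.5-fold. All 47 members passed the filter on low counts, and 4 of them were past the threshold as higher and 1 as lower, or 10.6% of the members. Among all genes tested, 10.9% were past the threshold, 4.97% as higher and 5.97% as lower. The members' share was thus near the background. Another 4 members had an adjusted p under 0.05 with a change under 1.5-fold (ACVR1, ACVR1B and TGIF1 higher, SKIL lower), which makes 9 members without a fold limit, where 17.3% of all genes passed. An unadjusted p under 0.05 was found by edgeR in 18 members and in 37.6% of all genes, 19.1% as higher and 18.5% as lower. Both PRMT3-KD values lay above both Ctrl values for 21 members (33.3% of all genes) and below them for 14 members (33.8% of all genes). The median log2 fold change was 0.18 over the members and 0.0055 over all genes. These calls rest on both Ctrl libraries, although the changes stayed of similar size without either. For each gene the edgeR fit used a spread shared by both groups, so its p-values assume equal spread. The groups were unequal in this, with a chi-square per degree of freedom of 1.41 in Ctrl and 66.7 in PRMT3-KD. With a Ctrl library left out, only the PRMT3-KD libraries inform the spread. Without Ctrl 1 and without Ctrl 2, the log2 fold changes were 0.81 and 0.81 for INHBA and 1.22 and 1.40 for BMP4. They were 0.75 and 0.63 for TGFBR1 and -0.76 and -0.85 for BMP6. For FSTL3 they lay between 0.96 and 1.16 with any 1 library left out. With either Ctrl library left out, 0 members and 0 genes were past the threshold by edgeR, while 6 and 7 members and 1842 and 1868 genes had an unadjusted p under 0.05, and the lowest adjusted p of a member was 0.136 without Ctrl 1 and 0.125 without Ctrl 2. DESeq2 and limma-voom, run on all 4 libraries, placed 9 and 7 members past the threshold, where they placed 13.9% and 12.8% of all genes there. Permuting 2 against 2 libraries allows no exact two-sided p smaller than 0.33, and the p-values of single genes were therefore taken from models fitted across all genes.

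**Figure D2:**
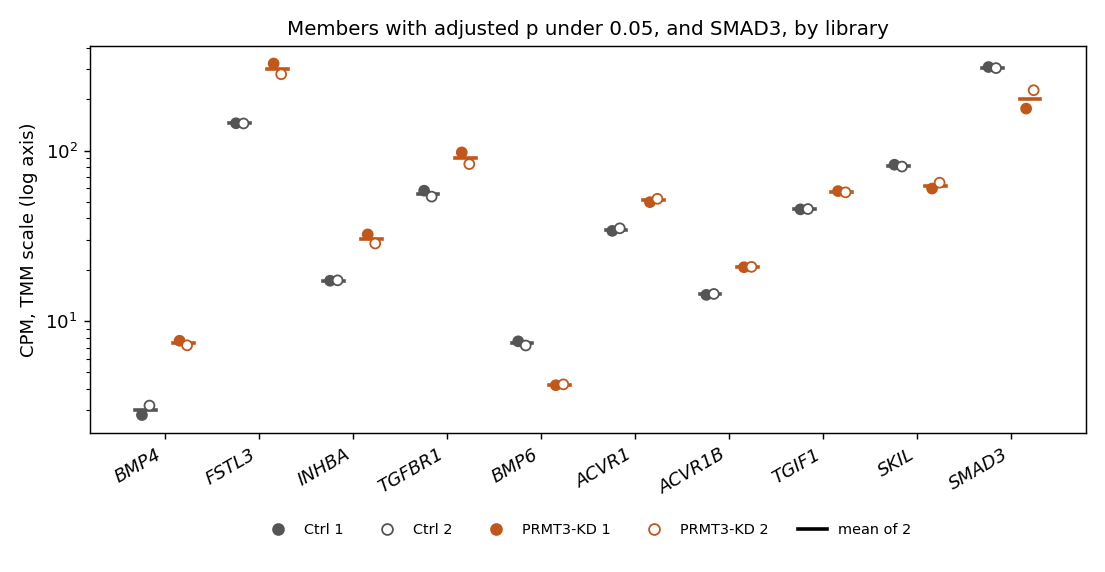
CPM on a log axis in each library for the 9 members with an adjusted p under 0.05 and for SMAD3, with Ctrl in grey, PRMT3-KD in orange, replicate 1 filled, replicate 2 open, and a bar at the mean of 2. In each of these genes both PRMT3-KD points lie on the same side of both Ctrl points.

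Among the ligands, INHBA and BMP4 were higher and BMP6 was lower in PRMT3-KD cells. INHBA, which encodes the subunit of activin A, was at 17.3 and 17.3 CPM in the Ctrl libraries and 32.2 and 28.5 CPM in PRMT3-KD libraries 1 and 2. The PRMT3-KD values lay above the Ctrl values without overlap, with means of 17.3 ± 0.0635 CPM in Ctrl against 30.4 ± 2.63 CPM in PRMT3-KD (SD, n = 2). The rise was 1.76-fold (log2 fold change 0.81, standard error 0.106, edgeR adjusted p = 0.0211). BMP4, a ligand of the BMP branch, was at 2.82 and 3.20 CPM in the Ctrl libraries and 7.68 and 7.22 CPM in PRMT3-KD libraries 1 and 2. Both PRMT3-KD libraries again exceeded both Ctrl libraries, by 2.47-fold (log2 fold change 1.31, standard error 0.170, edgeR adjusted p = 0.0211), with means of 3.01 ± 0.272 CPM in Ctrl against 7.45 ± 0.325 CPM in PRMT3-KD (SD, n = 2). BMP6, a further BMP, was at 7.62 and 7.20 CPM in the Ctrl libraries and 4.21 and 4.26 CPM in PRMT3-KD libraries 1 and 2, with its PRMT3-KD values in close accord with each other and below those of Ctrl. Its means were 7.41 ± 0.295 CPM in Ctrl against 4.24 ± 0.0337 CPM in PRMT3-KD (SD, n = 2) (log2 fold change -0.81, standard error 0.149, edgeR adjusted p = 0.0358). The call of BMP6 was lost in limma-voom with a weight for each group (log2 fold change -0.80, standard error 0.284, adjusted p = 0.0817), where the change was of the same size and the standard error wider. BMP2 was detected with few counts, from 9 to 11 in Ctrl and from 21 to 22 in PRMT3-KD libraries, and did not pass the test (log2 fold change 1.14, edgeR adjusted p = 0.0855). BMP7 stayed near 1 CPM in every library (log2 fold change -0.04, edgeR adjusted p = 0.927).

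The TGF-beta ligands themselves did not pass the threshold. TGFB1 was at 182 and 183 CPM in the Ctrl libraries and 151 and 176 CPM in PRMT3-KD libraries 1 and 2 (log2 fold change -0.16, standard error 0.0984, edgeR adjusted p = 0.302). Both PRMT3-KD values were below those of Ctrl, by less than the test could call. TGFB2 was at 305 and 305 CPM in the Ctrl libraries and 368 and 784 CPM in PRMT3-KD libraries 1 and 2. The second PRMT3-KD library stood far above the other 3, and the difference between groups did not pass the edgeR test (log2 fold change 0.92, standard error 0.370, edgeR adjusted p = 0.153), although DESeq2 and limma-voom placed it past the threshold. TGFB3 was lower than Ctrl in PRMT3-KD 1 and higher in PRMT3-KD 2 (21.01 and 21.4 CPM in Ctrl against 15.6 and 28.5 CPM in PRMT3-KD, log2 fold change 0.06, edgeR adjusted p = 0.910). The exons of INHBA, BMP4, TGFB1, TGFB2, TGFB3 and BMP6 overlap those of a gene on the opposite strand in GENCODE (INHBA-AS1 and TXNDC5 among them). Of the members outside the ligands, so do LTBP1, LTBP2, LTBP3, BMP1, ACVR2A, ENG, SMAD1, SMAD3, SMAD5, FSTL1, SMURF1, SMURF2 and ID2. Whether the counting used strand is not given in the sources used here, and reads of such partners cannot then be told apart. The exons of TGFB2, BMP1, BMPR2 and SMAD4 also overlap those of a gene on the same strand (TGFB2-OT1 among them), which strand does not separate.

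Of the 5 genes for ligand storage and processing, 0 were past the threshold by edgeR, DESeq2 or limma-voom, which placed 10.9%, 13.9% and 12.8% of all genes there. By edgeR 0 of the 5 had an unadjusted p under 0.05, against 37.6% of all genes. BMP1, a metalloprotease that cleaves procollagens and chordin, was at 142 and 140.4 CPM in the Ctrl libraries and 114 and 143 CPM in PRMT3-KD libraries 1 and 2 and its groups overlapped (log2 fold change -0.14, edgeR adjusted p = 0.487). The latent TGF-beta binding proteins tether the inactive ligand to the matrix. LTBP1 (29.1 and 30.7 CPM in Ctrl against 19.5 and 25.4 CPM in PRMT3-KD, log2 fold change -0.41, edgeR adjusted p = 0.135) and LTBP4 (90.5 and 89.98 CPM in Ctrl against 51.4 and 77.3 CPM in PRMT3-KD, log2 fold change -0.49, edgeR adjusted p = 0.170) had both PRMT3-KD values under the Ctrl values, short of the threshold. In limma-voom LTBP4 had an adjusted p of 0.0439 with a change under 1.5-fold (log2 fold change -0.51). In edgeR the log2 fold changes of LTBP1 and LTBP4 were -0.62 and -0.82 with PRMT3-KD 2 left out. With PRMT3-KD 1 left out they were -0.23 and -0.22. LTBP3 and LTBP2 had PRMT3-KD values on either side of Ctrl, and the 2 genes went opposite ways between these libraries. LTBP3 was at 115 and 169 CPM in PRMT3-KD 1 and 2 (Ctrl 142 and 145 CPM), and LTBP2 at 16.02 and 6.09 CPM (Ctrl 9.46 and 8.22 CPM).

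Of the 11 receptors and co-receptors, 1 rose past the threshold and 0 fell, by edgeR as by DESeq2 and limma-voom. This share of the group was near that of all genes, which was 10.9%, 13.9% and 12.8% by the 3 tools. At an unadjusted p under 0.05, 5 were higher and 0 lower by edgeR (37.6% of all genes in either direction), and both PRMT3-KD values lay above both Ctrl values in 7 (33.3% of all genes). TGFBR1, the type I receptor of TGF-beta also known as ALK5, was at 58.2 and 53.7 CPM in the Ctrl libraries and 97.5 and 83.3 CPM in PRMT3-KD libraries 1 and 2. The groups were separate, with means of 55.9 ± 3.17 CPM in Ctrl against 90.4 ± 10.1 CPM in PRMT3-KD (SD, n = 2) and a rise of 1.62-fold (log2 fold change 0.69, standard error 0.110, edgeR adjusted p = 0.0282). With PRMT3-KD 1 left out the change of TGFBR1 was 0.58 on the log2 scale, just under 1.5-fold. ACVR1, a type I receptor of BMPs and activin also called ALK2, was at 33.8 and 35.01 CPM in the Ctrl libraries and 49.8 and 52.1 CPM in PRMT3-KD libraries 1 and 2 (log2 fold change 0.57, standard error 0.0811, edgeR adjusted p = 0.0235). ACVR1B, the type I activin receptor ALK4, was at 14.3 and 14.4 CPM in the Ctrl libraries and 20.7 and 20.8 CPM in PRMT3-KD libraries 1 and 2 (log2 fold change 0.53, standard error 0.0941, edgeR adjusted p = 0.0331). These changes had a small spread and reached 1.48-fold and 1.45-fold, below the limit. With edgeR scaling by library totals, ACVR1B did not pass the test (log2 fold change 0.50, adjusted p = 0.0547). The BMP type I receptors BMPR1A and BMPR1B had the opposite sign and did not pass the test. BMPR1A was at 69.6 and 71.5 CPM in Ctrl against 60.7 and 63.9 CPM in PRMT3-KD (log2 fold change -0.18, edgeR adjusted p = 0.163) and BMPR1B at 14.4 and 13.6 CPM in Ctrl against 6.93 and 12.3 CPM in PRMT3-KD (log2 fold change -0.54, edgeR adjusted p = 0.254), with all PRMT3-KD values under those of Ctrl.

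The type II receptors, which carry the constitutively active kinase, did not pass the test. TGFBR2, the most abundant receptor per length, was at 120.4 and 122 CPM in the Ctrl libraries and 147 and 117 CPM in PRMT3-KD libraries 1 and 2 and its groups overlapped (log2 fold change 0.12, edgeR adjusted p = 0.553). The activin type II receptors ACVR2A (7.51 and 7.05 CPM in Ctrl against 10.5 and 9.82 CPM in PRMT3-KD, log2 fold change 0.48, edgeR adjusted p = 0.0726) and ACVR2B (9.20 and 9.56 CPM in Ctrl against 10.4 and 13.8 CPM in PRMT3-KD, log2 fold change 0.36, edgeR adjusted p = 0.220) and the BMP type II receptor BMPR2 (97.8 and 95.9 CPM in Ctrl against 107 and 135 CPM in PRMT3-KD, log2 fold change 0.32, edgeR adjusted p = 0.163) had both PRMT3-KD values above both Ctrl values. Of the co-receptors, which present ligand to the signaling receptors, TGFBR3 (betaglycan) was at 1.88 and 2.33 CPM in Ctrl against 4.25 and 3.41 CPM in PRMT3-KD (log2 fold change 0.86, edgeR adjusted p = 0.0748). ENG (endoglin) was at 1.95 and 2.87 CPM in Ctrl against 1.97 and 6.72 CPM in PRMT3-KD, so that the second PRMT3-KD library stood apart from the other 3 (log2 fold change 0.86, edgeR adjusted p = 0.386). ENG is also expressed by endothelial cells, and the endothelial cadherin CDH5 was likewise highest in that library (5.05 and 5.31 CPM in Ctrl against 5.08 and 25.4 CPM in PRMT3-KD). The other 2 endothelial markers in the table were KDR, which fell (20.1 and 22.2 CPM in Ctrl against 13.4 and 9.997 CPM in PRMT3-KD, log2 fold change -0.86, edgeR adjusted p = 0.0428), and VWF (2.35 and 2.07 CPM in Ctrl against 1.18 and 2.46 CPM in PRMT3-KD). The sum of the 3 was 27.5 and 29.6 CPM in Ctrl against 19.6 and 37.9 CPM in PRMT3-KD, and their part in the values of ENG was not tested.

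**Figure D3:**
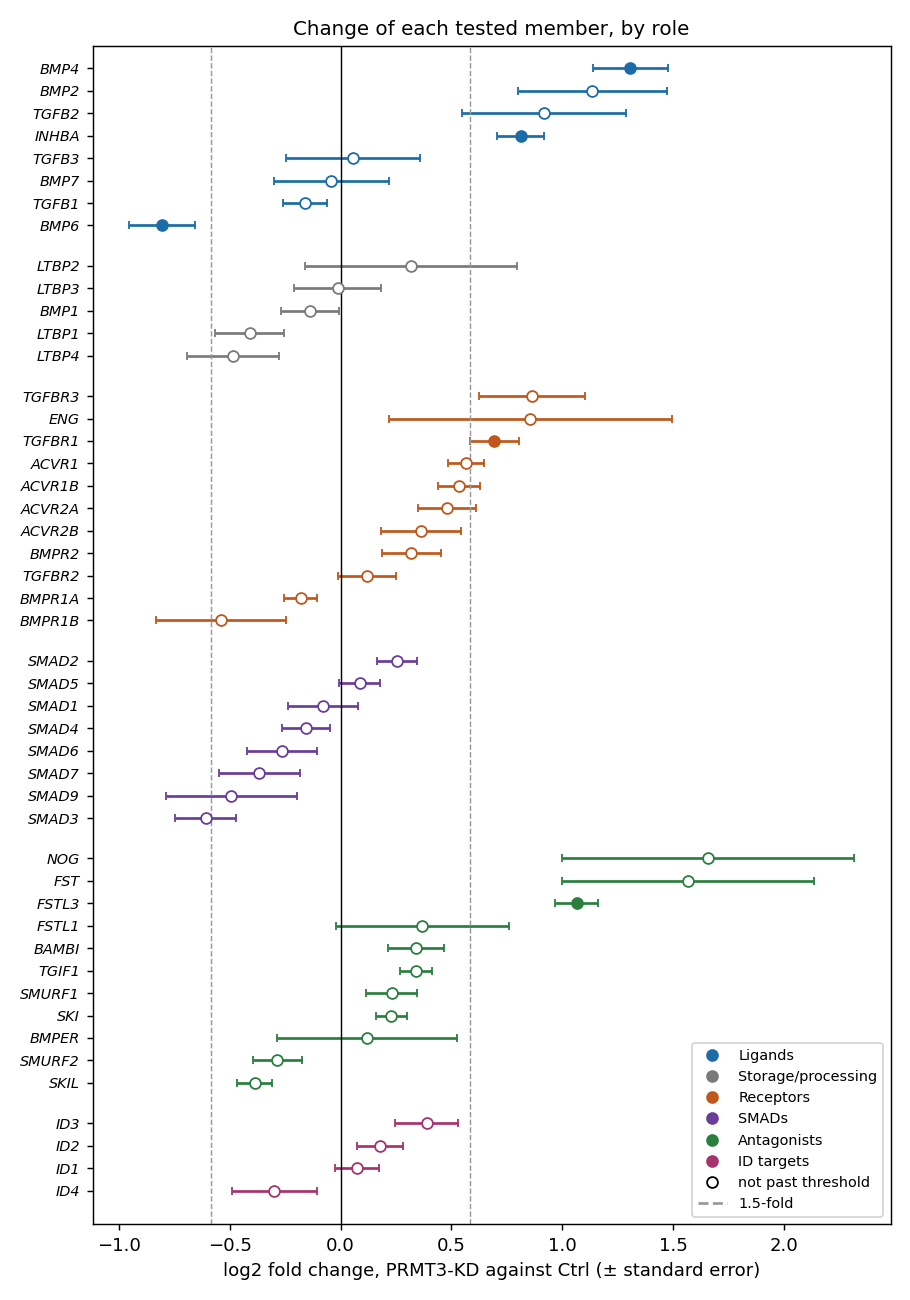
log2 fold change of PRMT3-KD against Ctrl for each of the 47 tested members, sorted within each role, with horizontal bars for the standard error, filled points for members past the threshold and dashed lines at 1.5-fold. BMP4, INHBA, TGFBR1 and FSTL3 are filled on the right and BMP6 on the left, and the widest bars belong to NOG, ENG and FST.

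Among the 8 SMADs, 0 were past the threshold by edgeR (10.9% of all genes) and 1, SMAD3, by DESeq2 (13.9%) and by limma-voom (12.8%), so that the counts were near the background. By edgeR 2 of the 8, SMAD2 and SMAD3, had an unadjusted p under 0.05, against 37.6% of all genes. SMAD3, the transducer of TGF-beta and activin signals with the highest level of the group, was at 309 and 304 CPM in the Ctrl libraries and 176 and 226 CPM in PRMT3-KD libraries 1 and 2. Both PRMT3-KD values were well below Ctrl, at 0.656 of the Ctrl level, and the adjusted p missed the threshold by a narrow margin (log2 fold change -0.61, standard error 0.137, edgeR adjusted p = 0.0503). SMAD3 was past it under DESeq2 (adjusted p = 0.00445), limma-voom (adjusted p = 0.00641) and edgeR with scaling by library totals (adjusted p = 0.0347). SMAD2, its partner in the same branch, had the opposite sign, with 42.8 and 39.05 CPM in Ctrl against 47.7 and 49.98 CPM in PRMT3-KD (log2 fold change 0.26, edgeR adjusted p = 0.118).

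The remaining SMADs did not pass the test. SMAD1 and SMAD5, which carry BMP signals, had log2 fold changes of -0.08 and 0.09 (edgeR adjusted p = 0.749 and 0.549), and their groups overlapped. SMAD9, the least abundant BMP SMAD per length, was at 4.76 and 4.87 CPM in Ctrl against 4.29 and 2.57 CPM in PRMT3-KD (log2 fold change -0.49, edgeR adjusted p = 0.292). SMAD4, the common partner, was at 28.2 and 29.01 CPM in Ctrl against 23.9 and 27.5 CPM in PRMT3-KD (log2 fold change -0.16, edgeR adjusted p = 0.362). The inhibitory SMAD6 (30.7 and 28.1 CPM in Ctrl against 27.6 and 21.3 CPM in PRMT3-KD, log2 fold change -0.26, edgeR adjusted p = 0.289) and SMAD7 (11.98 and 13.1 CPM in Ctrl against 11.1 and 8.31 CPM in PRMT3-KD, log2 fold change -0.37, edgeR adjusted p = 0.226), both induced by the pathway they restrain, were lower in both PRMT3-KD libraries without passing the test.

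FSTL3 had the lowest adjusted p of the members. It encodes a secreted follistatin-like protein that binds activin and myostatin, and was at 145 and 144 CPM in the Ctrl libraries and 324 and 280.0 CPM in PRMT3-KD libraries 1 and 2. The Ctrl values were nearly the same and both PRMT3-KD values were at about double that level (2.09-fold, log2 fold change 1.06, standard error 0.0970, edgeR adjusted p = 0.0156). The mean level was 144 ± 0.307 CPM in Ctrl against 302 ± 30.9 CPM in PRMT3-KD (SD, n = 2). Thus both INHBA and an antagonist of activin were past the threshold as higher. FSTL3 and BMP4 were the 2 members past the threshold at a 2-fold limit, for which no share of all genes is given here.

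The other secreted antagonists were marked by the difference between the PRMT3-KD libraries. NOG (noggin), which binds BMPs, was at 4.80 and 4.54 CPM in the Ctrl libraries and 23.3 and 6.23 CPM in PRMT3-KD libraries 1 and 2. FST (follistatin), which neutralises activin, was at 3.03 and 3.05 CPM in the Ctrl libraries and 13.6 and 4.51 CPM in PRMT3-KD libraries 1 and 2. Both genes were far higher in the first PRMT3-KD library than in any other, and both exceeded Ctrl in the second by a smaller step. The mean changes of 3.15-fold and 2.97-fold were not called by edgeR (log2 fold change 1.66, standard error 0.660, edgeR adjusted p = 0.150 for NOG and log2 fold change 1.57, standard error 0.569, edgeR adjusted p = 0.125 for FST), but both were called by DESeq2. By limma-voom FST was called (adjusted p = 0.0414) and NOG was not (adjusted p = 0.0551). FSTL1 was instead highest in the second PRMT3-KD library, with 921 and 925 CPM in the Ctrl libraries and 735 and 1648 CPM in PRMT3-KD libraries 1 and 2 (log2 fold change 0.37, edgeR adjusted p = 0.541), as was the BMP-binding BMPER with 4.08 and 3.93 CPM in Ctrl against 2.72 and 5.95 CPM in PRMT3-KD (log2 fold change 0.12, edgeR adjusted p = 0.858). BAMBI, a membrane pseudoreceptor without a kinase, was at 7.83 and 8.18 CPM in Ctrl against 10.4 and 9.93 CPM in PRMT3-KD (log2 fold change 0.34, edgeR adjusted p = 0.128).

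Of the 5 intracellular antagonists, 0 were past the threshold, against 10.9% of all genes. SKIL and TGIF1 had an adjusted p under 0.05 with a change under 1.5-fold, while SKI, SMURF1 and SMURF2 did not pass the test. Neither SKIL nor TGIF1 kept an adjusted p under 0.05 in every tool and setting run on all 4 libraries. SKIL and SKI are corepressors that bind SMADs. SKIL was at 82.6 and 80.6 CPM in the Ctrl libraries and 59.9 and 64.8 CPM in PRMT3-KD libraries 1 and 2, lower in both PRMT3-KD libraries (log2 fold change -0.39, standard error 0.0800, edgeR adjusted p = 0.0428). SKI was at 102 and 103 CPM in Ctrl against 123 and 118 CPM in PRMT3-KD (log2 fold change 0.23, edgeR adjusted p = 0.0912), on the other side of Ctrl. TGIF1, a homeodomain corepressor of SMAD2 and SMAD3, was at 45.2 and 45.4 CPM in the Ctrl libraries and 57.9 and 56.9 CPM in PRMT3-KD libraries 1 and 2 (log2 fold change 0.34, standard error 0.0734, edgeR adjusted p = 0.0468). Of the ubiquitin ligases that target SMADs and receptors, SMURF1 was at 112 and 115 CPM in Ctrl against 146 and 121 CPM in PRMT3-KD (log2 fold change 0.23, edgeR adjusted p = 0.220) and SMURF2 at 85.4 and 85.4 CPM in Ctrl against 76.4 and 63.8 CPM in PRMT3-KD (log2 fold change -0.28, edgeR adjusted p = 0.143), so that the pair had opposite signs.

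Of the 4 ID genes, the known BMP targets among the members, 0 were past the threshold by edgeR, DESeq2 or limma-voom, which placed 10.9%, 13.9% and 12.8% of all genes there, so that a count of 0 in 4 was near the background. Of the ID genes ID3 alone had an unadjusted p under 0.05 by edgeR, against 37.6% of all genes. ID1 was at 339.8 and 344 CPM in the Ctrl libraries and 387 and 332 CPM in PRMT3-KD libraries 1 and 2, with overlapping groups (log2 fold change 0.07, standard error 0.0988, edgeR adjusted p = 0.629). ID2 was at 89.5 and 86.7 CPM in the Ctrl libraries and 108 and 91.7 CPM in PRMT3-KD libraries 1 and 2 (log2 fold change 0.18, standard error 0.104, edgeR adjusted p = 0.284). ID3 was at 266 and 262 CPM in the Ctrl libraries and 391 and 301 CPM in PRMT3-KD libraries 1 and 2 (log2 fold change 0.39, standard error 0.142, edgeR adjusted p = 0.126). In ID2 and ID3 both PRMT3-KD values were above Ctrl, with the first library the higher. ID4 was at 31.4 and 30.6 CPM in the Ctrl libraries and 29.7 and 20.8 CPM in PRMT3-KD libraries 1 and 2, below Ctrl in both (log2 fold change -0.30, standard error 0.192, edgeR adjusted p = 0.322). These values stood beside the rise of BMP4 and the fall of BMP6 in the same cells.

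Differences between the PRMT3-KD libraries were a feature of many members. In 11 of 47 members (23.4%) these libraries were over 1.5-fold apart, against 17.0% of all genes tested. In 7 of the 11 the second library was the higher (TGFB2, TGFB3, LTBP4, BMPR1B, ENG, FSTL1 and BMPER) and in 4 the first (LTBP2, SMAD9, NOG and FST). The Ctrl libraries were over 1.5-fold apart in 0 members and in 3.36% of all genes. The sum of 8 fibroblast and mural cell markers was, like TGFB2 and FSTL1, highest in the second PRMT3-KD library, at 712 and 723 CPM in Ctrl against 661 and 1201 CPM in PRMT3-KD libraries 1 and 2, where THY1 made up most of it (603 and 609 CPM in Ctrl against 604 and 1008 CPM in PRMT3-KD). COL1A1 (55.7 and 58.9 CPM in Ctrl against 29.6 and 113 CPM in PRMT3-KD) and PDGFRB (15.9 and 15.6 CPM in Ctrl against 11.9 and 35.9 CPM in PRMT3-KD) were also highest in PRMT3-KD 2, as were 7 of the 8 markers in all. PDGFRA was at 33.4 and 34.2 CPM in Ctrl against 8.62 and 37.2 CPM in PRMT3-KD, and RGS5, the exception, at 3.93 and 3.45 CPM in Ctrl against 5.67 and 3.06 CPM in PRMT3-KD. DCN did not exceed 0.352 CPM in any library. PRMT3 itself was at 3.03 CPM in the first and 1.58 CPM in the second PRMT3-KD library. The part of these markers and of the PRMT3 level in the members' differences was not tested. Of the 5 members past the threshold, none was among the 11. The test weighs a change against the spread between libraries, so that close agreement of the PRMT3-KD libraries favors a call.

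**Figure D4:**
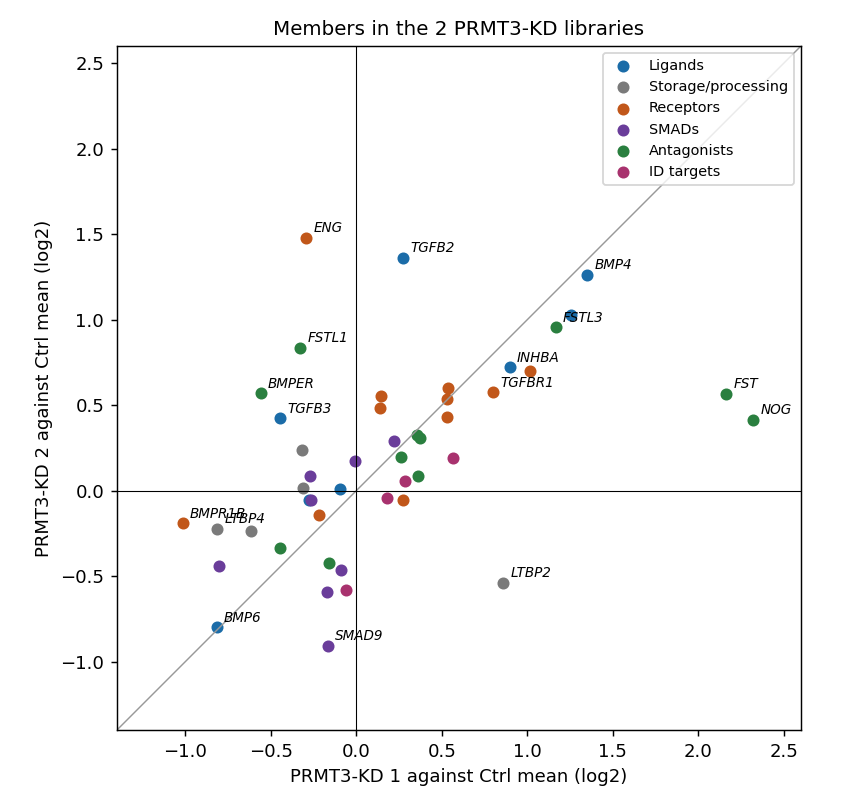
log2 ratio to the Ctrl mean of each member in PRMT3-KD library 1 (x axis) and 2 (y axis), colored by role, with the grey line where both are equal. BMP4, FSTL3, INHBA, TGFBR1 and BMP6 lie near the line, NOG and FST far to the right of it, and ENG, TGFB2 and FSTL1 above it.

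Further genes of the pathway, on 6 lists without the members, were compared in the same fit. Of 64 genes tested, 6 rose and 5 fell past the threshold, against 10.9% of all genes, and their median log2 fold change was 0.075. GDF15, a divergent family member that signals through GFRAL and RET, showed the largest change, with 8.73 and 8.76 CPM in the Ctrl libraries and 109.6 and 56.9 CPM in PRMT3-KD libraries 1 and 2 (log2 fold change 3.25, standard error 0.362, edgeR adjusted p = 0.0191). FURIN, the protease that cleaves TGF-beta precursors, was at 243 and 249 CPM in Ctrl against 516 and 398 CPM in PRMT3-KD (log2 fold change 0.89, edgeR adjusted p = 0.0284). RGMA, a BMP co-receptor, fell from 4.66 and 4.22 CPM to 1.69 and 2.11 CPM (log2 fold change -1.22, edgeR adjusted p = 0.0339), and CRIM1, a membrane protein that binds BMPs, from 503 and 501 CPM to 303 and 273 CPM (log2 fold change -0.80, edgeR adjusted p = 0.0179). RGMA was not past the threshold in limma-voom.

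Of 20 SMAD regulators tested, 3 rose and 3 fell past the threshold, where 4.97% of all genes rose and 5.97% fell. The ubiquitin ligases NEDD4L (33.6 and 34.5 CPM in Ctrl against 69.00 and 54.1 CPM in PRMT3-KD, log2 fold change 0.85, edgeR adjusted p = 0.0302) and WWP1 (22.4 and 21.5 CPM in Ctrl against 34.8 and 37.4 CPM in PRMT3-KD, log2 fold change 0.72, edgeR adjusted p = 0.0210), which act on SMADs and receptors, and the SMAD4 deubiquitinase USP9X (225 and 224 CPM in Ctrl against 308 and 368 CPM in PRMT3-KD, log2 fold change 0.59, edgeR adjusted p = 0.0356) rose. The SMAD phosphatase PPM1A (49.2 and 48.97 CPM in Ctrl against 27.2 and 29.7 CPM in PRMT3-KD, log2 fold change -0.79, edgeR adjusted p = 0.0192), the SMAD-binding repressor ZEB2 (74.3 and 72.5 CPM in Ctrl against 39.6 and 46.8 CPM in PRMT3-KD, log2 fold change -0.77, edgeR adjusted p = 0.0232) and the TGF-beta-induced inhibitor PMEPA1 (738 and 743 CPM in Ctrl against 520.4 and 441 CPM in PRMT3-KD, log2 fold change -0.62, edgeR adjusted p = 0.0306) fell. On the list of the non-SMAD branch, 1 of 12 rose, against the same 4.97% of all genes, namely TRAF4, an adaptor of the receptor complex (60.5 and 58.1 CPM in Ctrl against 127 and 92.4 CPM in PRMT3-KD, log2 fold change 0.89, edgeR adjusted p = 0.0381). USP9X and TRAF4 were not past the threshold when libraries were scaled by their totals. With PRMT3-KD 2 left out, USP9X and PMEPA1 changed by less than 1.5-fold (log2 fold changes 0.45 and -0.51).

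Genes known to respond to TGF-beta or activin went both ways. Of 35 tested outside the members, 7 rose and 3 fell, where 4.97% of all genes rose and 5.97% fell. The median log2 fold change was 0.55, and the 35 include ACTA2, which was chosen after its values were seen. DESeq2 placed 14 of them past the threshold as higher and 3 as lower, and limma-voom 12 and 3. In either direction these tools placed 13.9% and 12.8% of all genes there. Among those past the threshold in edgeR, the largest rises were in CNN1 (4.11 and 4.29 CPM in the Ctrl libraries and 17.99 and 41.4 CPM in PRMT3-KD libraries 1 and 2, log2 fold change 2.82, standard error 0.456, edgeR adjusted p = 0.0290) and TAGLN (28.3 and 26.5 CPM in Ctrl against 101 and 133 CPM in PRMT3-KD, log2 fold change 2.09, edgeR adjusted p = 0.0142), which encode the smooth muscle actin-binding proteins calponin and transgelin. ACTA2 (smooth muscle actin), which was added after its values were seen, had a larger mean change than TAGLN but did not pass the edgeR test (22.5 and 24.1 CPM in Ctrl against 53.7 and 164 CPM in PRMT3-KD, log2 fold change 2.22, edgeR adjusted p = 0.0624). PDGFB, a growth factor (15.6 and 15.5 CPM in Ctrl against 41.5 and 51.96 CPM in PRMT3-KD, log2 fold change 1.59, edgeR adjusted p = 0.0154), and POSTN, the matrix protein periostin (2.96 and 2.33 CPM in Ctrl against 6.69 and 7.74 CPM in PRMT3-KD, log2 fold change 1.45, edgeR adjusted p = 0.0239), also rose. The 3 that fell were the repressor SNAI2 (55.1 and 52.6 CPM in Ctrl against 25.3 and 33.1 CPM in PRMT3-KD, log2 fold change -0.88, edgeR adjusted p = 0.0317), the secreted TGFBI (1918 and 1933 CPM in Ctrl against 1076 and 1037 CPM in PRMT3-KD, log2 fold change -0.87, edgeR adjusted p = 0.0142) and PMEPA1. These genes answer to other signals as well, and the list was chosen with earlier results of these data known. Of 12 BMP target genes tested outside the members, 1 rose and 1 fell past the threshold, where 4.97% of all genes rose and 5.97% fell. TNFRSF11B (osteoprotegerin) rose (3.25 and 3.16 CPM in Ctrl against 7.28 and 6.27 CPM in PRMT3-KD, log2 fold change 1.08, edgeR adjusted p = 0.0293). HES1, a transcriptional repressor, fell (31.5 and 32.4 CPM in Ctrl against 17.4 and 16.9 CPM in PRMT3-KD, log2 fold change -0.90, edgeR adjusted p = 0.0172). The epithelial keratins KRT8 (5.38 and 5.82 CPM in Ctrl against 10.8 and 13.2 CPM in PRMT3-KD) and KRT18 (32.4 and 34.1 CPM in Ctrl against 74.2 and 98.2 CPM in PRMT3-KD) rose with the knockdown too, whereas KRT14 was at 3.03 and 3.71 CPM in Ctrl against 0.394 and 4.65 CPM in PRMT3-KD. The sum of the 4 epithelial markers in the table was 40.8 and 43.6 CPM in Ctrl against 85.5 and 116 CPM in PRMT3-KD, while CDH1 did not exceed 0.157 CPM in any library, and their part in the members' changes was not tested.

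Since FSTL3, INHBA, BMP4 and TGFBR1 rose in the same libraries, their promoters were read from GRCh37, from 250 bases before to 50 after the start of the canonical transcript, and are shown together with that of SMAD6. Capitals mark the motifs that were searched on both strands, namely the palindromic SMAD3 and SMAD4 site GTCTAGAC, the GC-rich SMAD site GGCGCC, and the AP-1 site TGAGTCA. Each sequence is given 5′ to 3′ on the strand of the gene.
FSTL3 (chr19:676142-676441, + strand, 78.7% G or C): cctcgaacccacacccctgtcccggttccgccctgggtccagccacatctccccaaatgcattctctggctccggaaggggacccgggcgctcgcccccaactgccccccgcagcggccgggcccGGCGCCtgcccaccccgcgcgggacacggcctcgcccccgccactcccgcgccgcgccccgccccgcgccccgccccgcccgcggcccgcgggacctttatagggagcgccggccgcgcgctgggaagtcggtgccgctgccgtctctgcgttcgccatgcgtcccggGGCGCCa
INHBA (chr7:41742639-41742938, - strand, 43.3% G or C): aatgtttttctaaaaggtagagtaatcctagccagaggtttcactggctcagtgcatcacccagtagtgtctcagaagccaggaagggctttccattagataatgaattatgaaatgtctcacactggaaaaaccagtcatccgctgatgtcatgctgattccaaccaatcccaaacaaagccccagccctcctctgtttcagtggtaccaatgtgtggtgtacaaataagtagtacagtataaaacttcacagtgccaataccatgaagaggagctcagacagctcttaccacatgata
BMP4 (chr14:54423494-54423793, - strand, 69.7% G or C): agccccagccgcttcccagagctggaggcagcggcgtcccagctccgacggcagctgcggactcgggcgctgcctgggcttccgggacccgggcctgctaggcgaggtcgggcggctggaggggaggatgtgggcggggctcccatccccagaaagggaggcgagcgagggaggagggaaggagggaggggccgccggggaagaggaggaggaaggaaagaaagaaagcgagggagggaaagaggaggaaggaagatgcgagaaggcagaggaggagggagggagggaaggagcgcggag
TGFBR1 (chr9:101867145-101867444, + strand, 78.7% G or C): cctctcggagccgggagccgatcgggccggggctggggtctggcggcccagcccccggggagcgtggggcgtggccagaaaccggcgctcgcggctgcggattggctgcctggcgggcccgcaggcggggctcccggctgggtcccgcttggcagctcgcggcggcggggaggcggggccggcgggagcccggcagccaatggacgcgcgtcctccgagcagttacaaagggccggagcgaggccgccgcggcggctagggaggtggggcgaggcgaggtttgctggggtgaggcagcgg
SMAD6 (chr15:66994324-66994623, + strand, 68.0% G or C): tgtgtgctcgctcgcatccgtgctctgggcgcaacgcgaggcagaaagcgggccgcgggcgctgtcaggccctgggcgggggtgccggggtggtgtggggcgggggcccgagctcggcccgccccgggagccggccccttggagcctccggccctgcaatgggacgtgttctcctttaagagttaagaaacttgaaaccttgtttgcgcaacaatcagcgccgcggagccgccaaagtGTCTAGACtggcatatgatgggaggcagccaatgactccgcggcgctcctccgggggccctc

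The promoters of the genes that rose had little in common in these letters. GGCGCC was present as 2 copies in FSTL3 and in 17 of the 47 members, against 31.8% of 13117 promoters of genes tested, and was not found in the windows of INHBA, BMP4, TGFBR1, BMP6 or the ID genes. GTCTAGAC occurred in 17 of 13117 promoters (0.130%), and the only member among them was SMAD6, where it lies at position -12 from the start. TGAGTCA was found in 2.88% of promoters, and of the members in TGFBR2. The INHBA window was 43.3% G or C and those of FSTL3 and TGFBR1 78.7%. FSTL3 (chr19:676392-683392), INHBA (chr7:41706766-41745432), BMP4 (chr14:54416454-54425479), TGFBR1 (chr9:101866320-101916474) and BMP6 (chr6:7726332-7881961) lie on different chromosomes in GRCh37. A match is a description of the letters and does not show that a factor binds.

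The sequence CAGCTCA occurs once in the 1593-base coding sequence of PRMT3 and was counted in the 3′ UTRs of the members, because it was known from earlier results of these data. It was present in 13 of 47 members (27.7%), against 17.5% of 12619 genes with a 3′ UTR of at least 50 bases. The 3′ UTRs of these 13 ran from 1519 bases (SMAD7) to 32870 bases (SMAD2). Those of the members without it ran from 268 bases (LTBP4) to 7803 bases (BMPR2). A longer 3′ UTR has more room for a match, and the part of length in these shares was not tested. The sites of SMAD3, SKIL, FSTL3 and TGFBR1 are shown, since these carriers had an adjusted p under or close to 0.05, with the 7 bases in capitals and the position of these 7 bases in GRCh37.
SMAD3 (chr15:67484504-67484510, + strand): caagtcataCAGCTCAaatgtgatg
SKIL (chr3:170112201-170112207, + strand): tttgtgtcaCAGCTCAgctttttgg
FSTL3 (chr19:682745-682751, + strand): agccagcggCAGCTCAgagcagggc
TGFBR1 (chr9:101915048-101915054, + strand): agaaaatgcCAGCTCAgatattttg

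Carriers of the sequence were found on both sides. FSTL3 and TGFBR1, 2 of the 4 members that rose past the threshold, have 1 site each, and so do SMAD3 and SKIL, which were lower in PRMT3-KD. BMP6 has 0 sites. The median log2 fold change was 0.086 in the 13 members with a site and 0.20 in those without, and -0.11 and 0.034 over all genes. Since the sequence was known from earlier results of these data, these medians are not an independent comparison. Of the members with a site, 7 had a log2 fold change above 0 (ACVR2B, FSTL3, SKI, SMAD2, SMAD5, TGFBR1 and TGFBR3) and 6 below 0 (BMPR1A, ID4, SKIL, SMAD3, SMAD4 and SMAD7).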

How the data were processed

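RNA-seq libraries of U251 cells were analysed, 2 Ctrl and 2 PRMT3-KD, grouped by their GEO labels. The authors aligned reads to hg19 with TopHat, and the deposited table holds unnormalized whole-number counts per gene from Cufflinks. The submitters' processing notes also name CASAVA and DESeq2, and versions are not given in the sources used here. The table had 15576 rows, of which 1 duplicate was removed. The members and gene lists were chosen with earlier results of these data known.

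The test was edgeR 4.0.16 under R 4.3.3, with filterByExpr (minimum count 10, minimum total 15), TMM factors (0.955 to 1.02), glmQLFit and glmQLFTest with group as the only term, and Benjamini-Hochberg adjustment over 13172 genes. Library totals were 24804250 to 29756313 counts, so that low genes are the least precise. CPM was scaled by TMM, and each standard error is the log2 fold change divided by the root of F. The test was run on simulated data before use.

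Every member is named, and of the lists the genes past the threshold, at most 4 by size for each list and direction. Alternatives were DESeq2 1.42.0, limma 3.58.1 (voom with group weights), library totals, upper-quartile factors, other count filters, the replicate number as a block, other fold limits and leaving out each library. GENCODE 44 lifted to GRCh37 held 99.9% of the identifiers. Promoters, UTRs and transcript lengths come from its canonical transcripts, read with Python 3.11.15 and pandas 2.3.3.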

Additional observations from a re-analysis of the deposited data

How the results depend on the processing

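Under DESeq2, limma-voom, the scalings, the count filters and the block, FSTL3, INHBA, BMP4 and TGFBR1 kept their direction and side of the threshold. The count of members past the threshold was 5, where 10.9% of all genes were past it. It was 9 under DESeq2 (13.9% of all genes) and 9 with no fold limit (17.3% of all genes). At 2-fold it was 2, and no share of all genes is given here for that limit. Leaving out 1 library gave 0 to 14 members, 0 to 3066 of all genes (1441 in all 4 libraries), 0 to 22 pathway list genes, 0 to 22 TGF-beta and activin targets and 0 to 8 BMP targets. The zeros came without either Ctrl library and the highest counts without a PRMT3-KD library. When a library is left out the lone library is assumed to vary like the other group. DESeq2 called 17, limma-voom 15 and the replicate block 13 of the TGF-beta and activin targets, against 10. The same settings called 1834, 1690 and 1464 of all 13172 genes tested, against 1441. The cause was not tested.

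Sign changes were seen in members near 0 or with PRMT3-KD libraries apart. Without PRMT3-KD 1 and without PRMT3-KD 2, which gave the lowest and highest values, the log2 fold changes were 0.0098 and -0.098 for BMP7, -0.53 and 0.85 for LTBP2, 0.24 and -0.32 for LTBP3, 0.020 and -0.32 for BMP1, -0.055 and 0.27 for TGFBR2, 0.090 and -0.27 for SMAD1 and -0.039 and 0.18 for ID1. They were 0.43 and -0.45 for TGFB3, 1.48 and -0.30 for ENG, 0.18 and -0.012 for SMAD5, 0.84 and -0.33 for FSTL1 and 0.57 and -0.56 for BMPER.

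The labels number the libraries 1 and 2 in both groups. Across 13172 genes the correlation of the within-group differences was 0.022. The Ctrl libraries differed by little more than counting error, so this correlation cannot show whether libraries with the same number were paired. With the replicate number as a block in edgeR, 5 members were past the threshold, with SMAD3 gained and BMP6 lost (log2 fold change -0.80, standard error 0.221, adjusted p = 0.0661). An adjusted p under 0.05 was found in 6 members, and ACVR1B (adjusted p = 0.0683), TGIF1 and SKIL were not among them. Of the pathway list genes 10 were past the threshold, with USP9X lost at just under 1.5-fold (log2 fold change 0.58). Of the TGF-beta and activin targets, 10 were past it as higher and 3 as lower, against 7 and 3 without the block. Of all 13172 genes tested, 1464 were past it. The log2 fold change of TGFB3 was -0.0025.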
